A study of Mus musculus with 39 samples.

Results

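The genes followed here are the nuclear-encoded subunits of the 5 oxidative phosphorylation complexes in mouse liver, fat and muscle. Members were protein-coding genes chosen by symbol (the Nduf, Sdh, Uqcr, Cox4 to Cox8 and Atp5 series) that had at least 10 counts in at least 3 of the 39 libraries. The rule kept 81 of the 45706 genes listed: 36 of complex I, 4 of complex II, 8 of complex III, 16 of complex IV and 17 of complex V. It left out 1 matching gene by name, while Cox7b2 and Cox8c did not reach the count limit. Ndufa4 and Ndufa4l2 were counted with complex I by their symbols, although the Ndufa4 protein works in complex IV. No measured level was used to choose the members other than that minimum.

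The study asked how E47, a helix-loop-helix transcription factor made from the Tcf3 gene, bears on glucocorticoid responses in male C57BL/6 mice aged 10 to 16 weeks. E47KO mice were E47-/- in all tissues and were compared with E47+/+ wild-type (WT) mice. E47LKO mice were Albcre/+;E47fl/fl, in which the albumin promoter drives Cre in hepatocytes only, so the other cells of the liver kept E47. Their controls lacked Cre and were Alb+/+;E47fl/fl in 2 mice and Alb+/+;E47fl/+ in 1. Dexamethasone (Dex, a synthetic glucocorticoid) was given for 3 weeks in drinking water at 10 µg per ml, and liver, epididymal white adipose tissue (WAT) and quadriceps muscle were taken from 2 WT mice each and from 3, 2 and 3 E47KO mice. Corticosterone (Cort, the main glucocorticoid of mice) was given for 3 weeks at 100 µg per ml, with livers from 4 WT and 4 E47KO mice. Livers also came from 5 WT and 6 E47KO untreated mice, and from 3 controls and 3 E47LKO mice 1 h after an injection of Dex at 1 mg per kg. These are 12 groups in all, and 30 of the 39 libraries are livers.

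Oxidative phosphorylation takes electrons from NADH at complex I and from succinate at complex II, passes them through complex III to oxygen at complex IV, and uses the proton gradient so formed to drive ATP synthesis at complex V. A few subunits, all within the hydrophobic cores of complexes I, III, IV and V, are encoded by mitochondrial DNA, and the rest come from nuclear genes. Complex II is wholly nuclear-encoded and also acts as succinate dehydrogenase of the citrate cycle. Several complex IV subunits exist as paired isoforms, of which Cox6a2, Cox7a1 and Cox8b are known as the heart and skeletal muscle forms and Cox6a1, Cox7a2 and Cox8a as the broadly expressed forms.

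The promoters of 2 of these pairs are shown because the pair members were expressed in different tissues and because E47 binds E-boxes, the sequence CANNTG. Each line gives the 250 bases before the RefSeq transcription start in GRCm38.p6, the patch release of the mm10 build, on the strand of the gene, with E-boxes in capitals. Cox7a1 lies on the plus strand and its window is chr7:30183921-30184170. The other windows are on the minus strand, at chr9:79759854-79760103 for Cox7a2, chr19:7217617-7217866 for Cox8a and chr7:140900447-140900696 for Cox8b. The last 27 bases of the Cox7a1 window and the last 25 of the Cox7a2 window lie inside the gene model of the annotation used here for exon lengths.
Cox7a1: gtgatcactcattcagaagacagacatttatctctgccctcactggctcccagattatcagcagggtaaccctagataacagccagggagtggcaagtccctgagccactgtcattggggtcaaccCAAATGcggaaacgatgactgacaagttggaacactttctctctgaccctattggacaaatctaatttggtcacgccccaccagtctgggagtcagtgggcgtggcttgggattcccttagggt
Cox7a2: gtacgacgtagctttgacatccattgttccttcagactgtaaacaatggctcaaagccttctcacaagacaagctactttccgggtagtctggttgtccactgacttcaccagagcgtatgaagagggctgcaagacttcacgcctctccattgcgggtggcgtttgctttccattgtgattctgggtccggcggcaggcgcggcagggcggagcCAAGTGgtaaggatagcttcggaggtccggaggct
Cox8a: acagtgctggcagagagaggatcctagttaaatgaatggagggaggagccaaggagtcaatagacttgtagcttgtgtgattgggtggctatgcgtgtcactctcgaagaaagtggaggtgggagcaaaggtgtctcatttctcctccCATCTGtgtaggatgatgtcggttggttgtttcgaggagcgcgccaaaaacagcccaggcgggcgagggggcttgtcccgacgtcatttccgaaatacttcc
Cox8b: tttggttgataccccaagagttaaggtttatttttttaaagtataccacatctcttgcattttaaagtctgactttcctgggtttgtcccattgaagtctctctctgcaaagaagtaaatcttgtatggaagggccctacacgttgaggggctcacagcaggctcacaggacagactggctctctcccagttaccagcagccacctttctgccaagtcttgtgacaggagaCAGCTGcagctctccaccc
Each of these windows held 1 E-box, and that of Cox8b was CAGCTG. The broadly expressed Cox7a2 and Cox8a had 14 and 11 CpG dinucleotides here, while the muscle forms Cox7a1 and Cox8b had 4 and 1. Among the same 250-base windows of 69 RefSeq promoters, which matched 64 members, the median GC content was 56.0% with 14 CpG, against 52.4% and 6 over all 32841 promoters. An E-box on either strand was present in 60.9% of member promoters and in 66.2% of all. The E-box CAGGTG was found in 20.3% against 17.2%, and CAGCTG in 8.70% against 13.0%. The nuclear respiratory factor 1 motif was found in 5.80% of member promoters (Atp5g2, Atp5k, Cox6a1 and Ndufa11) against 0.783% of all, the ETS motif CCGGAAGT in 4.35% (Atp5h, Uqcr11 and Uqcrh) against 2.88%, and the estrogen-related receptor motif TCAAGGTCA in 1.45% (Atp5g3) against 0.387%. All motifs were read on both strands, the latter 3 do not contain an E-box, and a match describes the letters only. Promoters of Cox6a2, Cox4i1 and Cox4i2 were not analysed here.

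Libraries held 15513941 to 54560884 counts assigned to genes. Tissue labels were checked with marker genes in the 14 libraries after 3 weeks of Dex. The 6 hepatocyte markers summed to 104943 to 141125 CPM (counts of a gene relative to the TMM-scaled total of its library) in liver, 18.4 to 67.2 in WAT and 0.872 to 182 in muscle. The 8 fast muscle markers summed to 150590 to 232273 CPM in muscle and to at most 68.4 elsewhere, and the 6 white adipocyte markers to 18809 to 22201 CPM in WAT and to at most 1104 elsewhere. Tcf3 counts did not check the knockout labels, because E47 is only a part of what Tcf3 encodes: its log2 fold change between genotypes was -0.15 to 0.23 over 6 comparisons, none past the threshold. In bulk samples such as these, fewer cells of a type and less RNA per cell cannot be told apart.

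Some libraries stood apart for the members. Among the 11 untreated livers, library numbers in the labels fall into 2 ranges, and the lower range holds 3 livers (WT replicates 1 and 2, E47KO replicate 1). These had summed complex I levels of 4278 to 4751 CPM against 2747 to 3075 in the other 8, complex III of 1951 to 2239 against 1267 to 1480, complex IV of 2347 to 2750 against 1462 to 1646, and complex V of 6030 to 6650 against 4396 to 5158. Complex II did not separate them, with 1335 to 1557 against 1190 to 1489 CPM. Of 78 members, 65 (83.3%) were higher in all 3 than in all 8 others, as were 17.0% of 11305 protein-coding genes over 1 CPM. Separately, 7 of the 30 livers had fast muscle markers over 100 CPM (151 to 338): WT Cort replicates 2, 3 and 4, E47KO Cort replicates 3 and 4, E47KO untreated replicate 2 and WT untreated replicate 4. In these 7, the muscle isoform Cox6a2 was at 1.30 to 6.25 CPM, against 0 to 1.01 in the other 23. Cox8b, at 0.364 to 3.47 CPM in the 7 against 0 to 0.552 in the others, and Cox7a1, at 1.22 to 4.58 against 0.457 to 1.94, overlapped between them. The brown adipocyte markers Ucp1, Cidea and Dio2 summed to 10.8 CPM in E47KO untreated replicate 2 and to 7.15 in WT untreated replicate 4. They summed to at most 3.46 in the other livers, and to at most 0.104 in the Cort livers among the 7. Their part in the Cox8b level was not tested. Counts of called members that rest on the lower-numbered or the muscle-marker livers are given with and without them.

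The first question was which subunits each tissue used. Skeletal muscle used other isoforms of complex IV than liver and WAT. Levels between genes are compared as RPKM, that is CPM divided by the kilobases of merged exon, with WT libraries named before E47KO libraries.

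Cox6a1 (chr5:115345642-115348981, minus strand) was at 326 to 388 RPKM in the 5 livers. It was at 327 and 381 RPKM in WT WAT and 341 and 339 in E47KO WAT, but at 12.1 and 14.5 in WT muscle and 15.6, 17.5 and 17.1 in E47KO muscle. Liver and WAT thus overlapped, and all 5 muscle libraries lay far below both. Its counterpart Cox6a2 (chr7:128205435-128206387, minus strand) was at 741 and 676 RPKM in WT muscle and 689, 663 and 801 in E47KO muscle. No liver library exceeded 0.421 RPKM and no WAT library exceeded 0.313 for Cox6a2. Per length, Cox6a2 made up 97.9% ± 0.35 (SD, n = 5) of the pair in muscle.

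The Cox8 pair was split in the same way, with an intermediate level in fat. Cox8a (chr19:7215153-7217616) was at 301 and 335 RPKM in WT liver and 252, 303 and 354 in E47KO liver, at 415 and 456 in WT WAT and 435 and 399 in E47KO WAT, and at 20.4 and 24.1 in WT muscle and 22.4, 23.4 and 27.2 in E47KO muscle. Cox8b (chr7:140898945-140900446) was at 442 and 433 RPKM in WT muscle and 409, 421 and 418 in E47KO muscle, and at 5.31 and 18.0 in WT WAT and 12.2 and 14.2 in E47KO WAT. In liver Cox8b reached at most 0.795 RPKM and had no count in 1 E47KO library. WAT libraries were therefore above all livers and below all muscles for Cox8b. The brown adipocyte markers Ucp1, Cidea and Dio2 summed to 1.11 to 2.46 CPM in these WAT libraries and to 0 to 0.209 in the livers, and their part in the Cox8b level was not tested.

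The Cox7a pair was less completely divided. Cox7a1 (chr7:30184144-30186078) was at 203 and 234 RPKM in WT muscle and 230, 243 and 213 in E47KO muscle, and at 0.855 to 3.39 RPKM in every liver and WAT library. Cox7a2 (chr9:79755361-79759878) remained at 76.7 and 99.4 RPKM in WT muscle and 82.6, 93.5 and 89.6 in E47KO muscle, against 127 to 169 in liver and 130 to 156 in WAT. Cox7a1 was thus 71.8% ± 1.46 (SD, n = 5) of the pair in muscle, 1.16% in liver and 1.99% in WAT.

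The plot of paired isoforms shows these levels library by library.

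**Figure D1:**
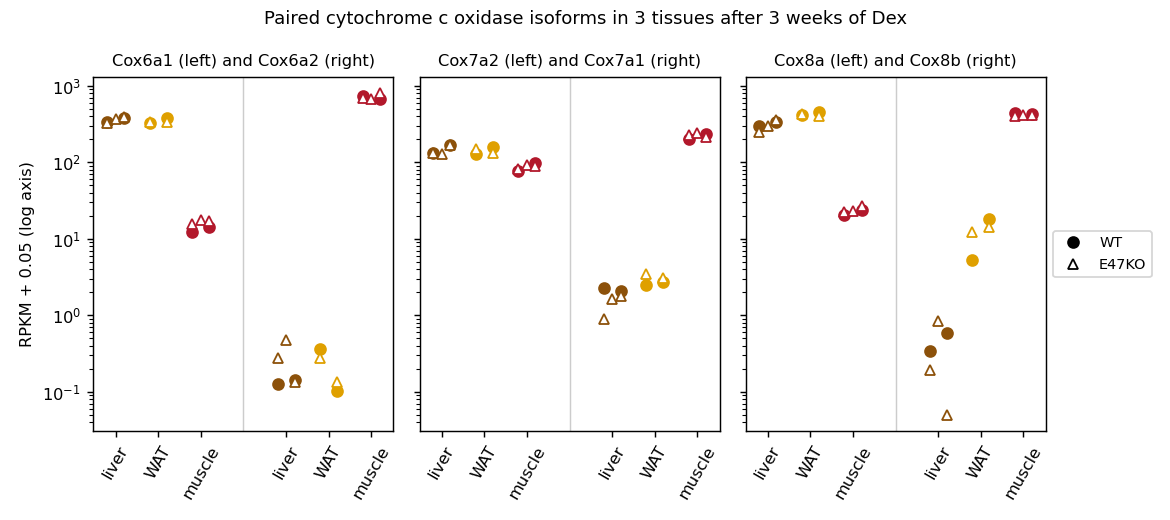
Level of 3 pairs of cytochrome c oxidase isoforms (y axis, RPKM + 0.05, log scale) in liver, WAT and muscle after 3 weeks of Dex; each filled circle is a WT library and each open triangle an E47KO library. Muscle isoforms stand at 203 RPKM or more in all 5 muscle libraries and at 18.0 or less in every liver and WAT library, while Cox6a1 and Cox8a are at 27.2 or less in muscle.

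Not every isoform family followed the tissue. The Cox4 pair did not switch: Cox4i1 was at 147 to 197 RPKM in liver, 205 to 245 in WAT and 181 to 216 in muscle, and Cox4i2, a form known from lung and hypoxia, made up at most 0.868% of the pair in any of the 14 libraries. Atp5g1, Atp5g2 and Atp5g3 encode the same mature c subunit of the ATP synthase ring. Atp5g3 (chr2:73908447-73911326) supplied most of their summed level in each tissue, at 75.1% ± 0.841 in liver (SD, n = 5), 86.1% ± 1.78 in WAT (n = 4) and 53.7% ± 1.92 in muscle (n = 5). The share of Atp5g1 (chr11:96068852-96075670) was 25.8% ± 0.819 in muscle, 10.9% ± 0.561 in liver and 4.29% ± 0.493 in WAT. With the length of the principal transcript in place of merged exons, a choice made after seeing the data, the Atp5g1 share was 11.4%, 4.20% and 1.56%, again highest in muscle and lowest in WAT.

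Between tissues, changes were tested with edgeR across all 18113 genes with sufficient counts, averaged over both genotypes, and a member was called at a Benjamini-Hochberg adjusted p under 0.05. Muscle had higher levels than liver of 65 members and lower levels of 7, where 76.4% of all genes were called (40.4% higher and 36.0% lower). The members' median log2 fold change was 0.72, against 0.11 over all genes. By complex, 30 of 36 members were higher in complex I, 3 of 4 in complex II, 6 of 8 in complex III, 12 of 16 in complex IV and 14 of 17 in complex V.

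Among the subunits with a single form, Atp5o, which joins the stalk of ATP synthase to its catalytic head, was at 293 and 317 CPM in WT muscle and 295, 328 and 319 in E47KO muscle, against 94.0 to 124 in liver (log2 fold change 1.69 ± 0.11, SE), so that no muscle library overlapped a liver library. Sdha, the flavoprotein of complex II, was at 838 to 1012 CPM in muscle and 407 to 463 in liver (1.18 ± 0.11). The α and β subunits of ATP synthase, Atp5a1 and Atp5b, rose by 1.11 ± 0.14 and 0.93 ± 0.15, and Uqcrc1, Uqcrc2 and Uqcrfs1 of complex III by 1.05, 0.96 and 0.65.

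The largest differences were those of isoforms. Cox6a2 was higher in muscle by 12.32 ± 0.39 on the log2 scale, Cox8b by 10.28 ± 0.47, Cox7a1 by 7.14 ± 0.15 and Cox4i2 by 5.79 ± 0.59. The liver side of the Cox6a2, Cox8b and Cox4i2 estimates rests on 0 to 6 counts per library, so their size depends on the fit. Cox6a1 was lower in muscle by 4.47 ± 0.11 and Cox8a by 3.61 ± 0.12, a 22.1-fold and a 12.2-fold difference. Besides isoforms, the small complex III subunit Uqcrq was the main exception to the direction of its complex. Uqcrq was at 74.3 to 80.3 CPM in muscle and 178 to 261 in liver (log2 fold change -1.39 ± 0.12, adjusted p 3.79e-07). The remaining members that were lower in muscle were Cox6b2 (-1.66), Cox7a2 (-0.60), Ndufa1 (-0.31) and Atp5d (-0.28), while Uqcr11 (0.09), Atp5g3 (-0.14) and Ndufa6 (-0.14) changed least and were not called.

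WAT and liver differed in both directions. Of the members, 26 were higher and 27 lower in WAT, where 75.4% of all genes were called (41.6% higher and 33.8% lower), and the median was 0.01 against 0.19 over all genes. All 4 subunits of complex II were lower in WAT, by 0.96 for Sdha, 0.36 for Sdhb, 0.62 for Sdhc and 1.07 for Sdhd on the log2 scale, but scaled by library totals Sdhb (0.43) and Sdhc (0.18) turned to the other direction and Sdha (-0.16) and Sdhd (-0.27) did not. Sdhd, a membrane anchor of that complex, was at 89.9 to 95.0 CPM in WAT and 187 to 222 in liver. Complex III had 1 member higher and 4 lower, complex IV 7 and 3, complex V 4 and 6, and complex I 14 and 10. This split depends on how libraries are scaled: by library totals, 64 members were higher and 5 lower, with a median of 0.80 against 0.98 over all genes.

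Single members nevertheless stood out between WAT and liver. Atp5g1 was at 34.9 to 44.0 CPM in WAT and 94.3 to 137 in liver (log2 fold change -1.52 ± 0.13), and Cox5a, a matrix-side subunit of complex IV, was at 20.5 to 22.1 and 43.1 to 77.9 CPM (-1.50 ± 0.14). Cox5a shares exons with an RNA on the opposite strand. These libraries hold unstranded counts only, which can drop or mix its reads, so its difference could not be checked by strand. Ndufs1, the iron-sulfur subunit that receives electrons at the tip of complex I, was at 44.4 to 48.6 CPM in WAT and 103 to 116 in liver (-1.16). In the other direction, Cox8b was higher in WAT by 5.10 ± 0.51, Ndufv3 by 1.23 and Ndufa2 by 0.90. Cox6a1 (0.00), Cox5b (0.01) and Ndufa10 (-0.01) changed least.

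Against WAT, muscle had 58 members higher and 8 lower (77.3% of genes called, 33.8% higher and 43.5% lower), with a median of 0.69 against -0.25 over all genes. All 4 subunits of complex II were higher in muscle, with a median of 1.15, and by library totals the values were Sdha 1.33, Sdhb 0.45, Sdhc 0.24 and Sdhd 0.07, the last of them not called. Atp5g1 (3.12) and Ndufs1 (2.51) were also among the higher members. By library totals 28 members were higher and 33 lower, with a median of -0.12 against -1.05 over all genes. The order of WAT and muscle for most members thus depends on the scaling, whereas that of muscle and liver (67 higher and 8 lower by library totals) and the Cox6a, Cox7a and Cox8 differences do not.

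**Figure D2:**
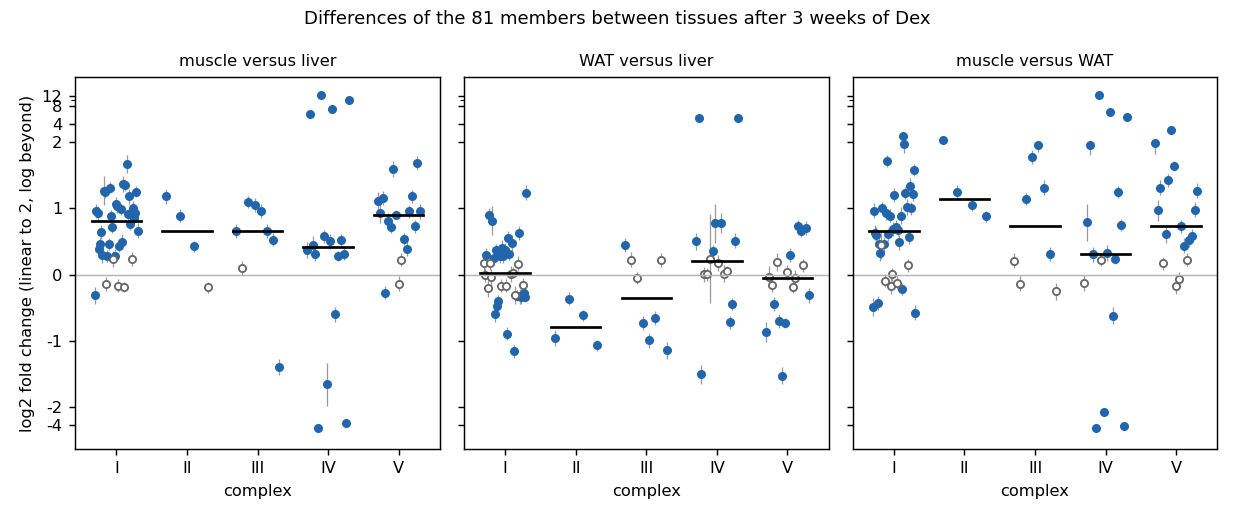
Difference of each member between tissues after Dex (y axis, log2 fold change, linear up to 2 and log beyond) by complex (x axis), in 3 panels for muscle against liver, WAT against liver and muscle against WAT; filled points were called by edgeR, open points were not, vertical lines are SE and black bars the median of a complex. Members of all 5 complexes lie mostly above 0 in muscle against liver (median 0.72), and those of complex II lie below 0 in WAT against liver, which by library totals held for Sdha and Sdhd but not for Sdhb and Sdhc.

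Summed over its members, complex I was at 2938 ± 316 CPM in liver (SD, n = 5), 2804 ± 164 in WAT (n = 4) and 4758 ± 233 in muscle (n = 5). Complex II was at 944 ± 51.4, 519 ± 31.2 and 1531 ± 104 CPM, and complex V at 4310 ± 337, 3613 ± 198 and 7242 ± 357. On this TMM scale complex IV differed least, at 1698 ± 174, 1766 ± 132 and 2252 ± 78.8 CPM. The WAT libraries had TMM factors of 1.61 to 1.77, so the place of WAT in all these sums depends on the scaling. By library totals 11 of 16 complex IV members were highest in WAT, against 3 on the TMM scale. Without the isoforms Cox4i2, Cox6a2, Cox6b2, Cox7a1 and Cox8b, the complex IV sum was 1696 CPM in liver, 1757 in WAT and 1492 in muscle, which then had the lowest sum. That sum keeps Cox6a1, Cox7a2 and Cox8a, which were lower in muscle, so the order follows in part from which isoforms were left out.

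Related gene lists were described in the same fits. Citrate cycle enzymes had 11 of 13 members higher and 1 lower in muscle than in liver, with a median of 1.59. Among them were isocitrate dehydrogenase subunit Idh3a (3.30) and citrate synthase Cs (2.52), and the exception was Suclg2 (-1.78), the GTP-forming partner of Sucla2 (1.59). Of 13 mitochondrially encoded subunits 10 were higher and none lower (median 0.93), with mt-Nd4l at 1.31 and mt-Cytb at 1.14. Assembly factors (20 higher and 13 lower of 42, median 0.20) and mitochondrial ribosomal proteins (38 and 25 of 77, median 0.23) were closer to the median of all genes. Of 12 regulators of mitochondrial biogenesis, 11 were lower in WAT than in liver and none higher (median -1.42), with the coactivator Ppargc1a at -4.20 and the nuclear receptor Esrrg at -3.75. That count is on the TMM scale. The split of the members between WAT and liver depended on the scaling, and the regulator count by library totals is not given here.

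The second question was what glucocorticoid treatment did to the same genes in liver. Here treatment was confounded with the experiment. Mice given Cort or Dex for 3 weeks were killed after a glucose tolerance test, for which they had fasted overnight, and the untreated mice were not. Strand columns were absent from the 3-week Dex libraries and nearly equal in the Cort libraries, whereas the untreated and 1 h libraries held 96.9% to 97.7% of stranded counts in 1 column. The 1 h mice carried floxed E47 alleles and had been injected. The labels name Qiazol for RNA of the 3-week tissues and RNeasy for the 1 h livers, whereas the study's methods name RNeasy for liver. Treatment and these differences cannot be told apart. All 30 livers entered 1 fit with a mean for each group, and 80 members passed its filter on low counts.

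After 3 weeks of Cort, most called members were lower than in untreated livers. In WT mice 52 members were lower and 1 higher, where 33.2% of all genes were called (17.0% higher and 16.1% lower), with a median of -0.47 against 0.01 over all genes. In E47KO mice 40 were lower and none higher (38.9% of genes called, 21.0% higher and 18.0% lower), with a median of -0.36 against -0.01. WT and E47KO comparisons use separate mice but share the confounding with experiment. The 40 members lower in E47KO were all among the 52 of WT, that is 100.0% of the E47KO list and 76.9% of the WT list. The overlap over all genes is not given here. Ndufs4, an accessory subunit at the tip of complex I, was at 41.9 to 52.6 CPM in WT Cort livers and 66.9 to 122 in WT untreated livers (log2 fold change -0.87 ± 0.16). Atp5l, a membrane subunit of ATP synthase, was at 47.6 to 59.2 and 82.0 to 115 CPM (-0.80 ± 0.10).

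The count of lower members rested in part on the 3 untreated livers of the lower library numbers. Without them, a choice made after seeing the data, Cort gave 6 members higher and 33 lower in WT, with a median of -0.19, where 16.5% of all genes were higher and 16.9% lower. In E47KO it gave 4 higher and 46 lower, with a median of -0.29, where 22.6% of genes were higher and 22.0% lower. With only those 3 as the untreated group, it gave 1 higher and 75 lower in WT (17.9% and 17.4% of genes) and 0 higher and 69 lower in E47KO (8.39% and 10.6%). Without the livers with muscle markers, which left 1 WT and 2 E47KO Cort livers, the medians were -0.57 and -0.36. That choice also removed WT untreated replicate 4 and E47KO untreated replicate 2, both of the higher library numbers. The 3 livers of the lower numbers then weighed more in the untreated means, so these medians cannot show whether the decrease depends on the muscle-marker livers. The lone WT liver was assumed to vary like the other groups, and 5.29% and 11.1% of all genes were lower there. Cox6a1 shows how a member depends on the reference: it was at 212 to 232 CPM in WT Cort livers, at 325 and 337 in WT untreated replicates 1 and 2, and at 166, 169 and 150 in the other 3. Under all 3 choices of untreated livers 33 members were lower in WT, 40 in E47KO and 32 in both. The WT count is that without the 3 livers, and the E47KO count is that with all untreated livers. The share of all genes that met the same rule is not given here, so these counts do not set the members apart.

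After 3 weeks of Dex, 2 members were higher and 21 lower in WT (31.9% of genes called, 15.6% higher and 16.3% lower, median -0.32 against -0.04 over all genes). In E47KO mice 5 were higher and 13 lower (37.8% of genes called, 19.4% higher and 18.4% lower, median -0.18 against -0.02). Of the members lower after Dex, 12 were shared by the separate WT and E47KO mice, 57.1% of the WT list and 92.3% of the E47KO list. The overlap over all genes is not given here either. Without the 3 untreated livers, WT had 11 higher and 11 lower with a median of -0.01 (16.3% of genes higher and 16.8% lower), and E47KO 13 higher and 19 lower with a median of -0.07 (21.7% and 20.7%). With only those 3, WT had 1 higher and 67 lower (20.1% and 18.2% of genes), and E47KO 0 higher and 54 lower (13.9% and 14.2%). Without the livers with muscle markers, WT had 2 higher and 17 lower and E47KO 2 higher and 10 lower. The WT count of 23 also fell to 9 without WT Dex replicate 1, to 9 without WT Dex replicate 2 and to 14 without WT untreated replicate 1.

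Members that were lower in every choice of untreated livers after Dex were few. In WT they were Sdha, Sdhb and Sdhc of complex II, Ndufa9, Ndufs1 and Ndufs8 of complex I, Uqcrc2 of complex III, Cox7a2l, and Atp5a1, Atp5g1 and Atp5l of complex V, 11 in all. In E47KO they were 13, namely Sdha, Sdhc, Sdhd, Ndufa9, Ndufs1, Ndufs8, Ndufv1, Uqcrc2, Cox7a2l, Atp5a1, Atp5g1, Atp5g2 and Atp5l. The share of all genes that met the same rule is not given here. Ndufs8, an iron-sulfur subunit on the electron path of complex I, was at 41.9 and 41.1 CPM in WT Dex livers and 64.3 to 114 in WT untreated livers (log2 fold change -0.98 ± 0.20, adjusted p 0.000398). The untreated level was 102 and 114 CPM in replicates 1 and 2 and 64.3 to 66.9 in the other 3, so all were above the Dex livers.

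**Figure D3:**
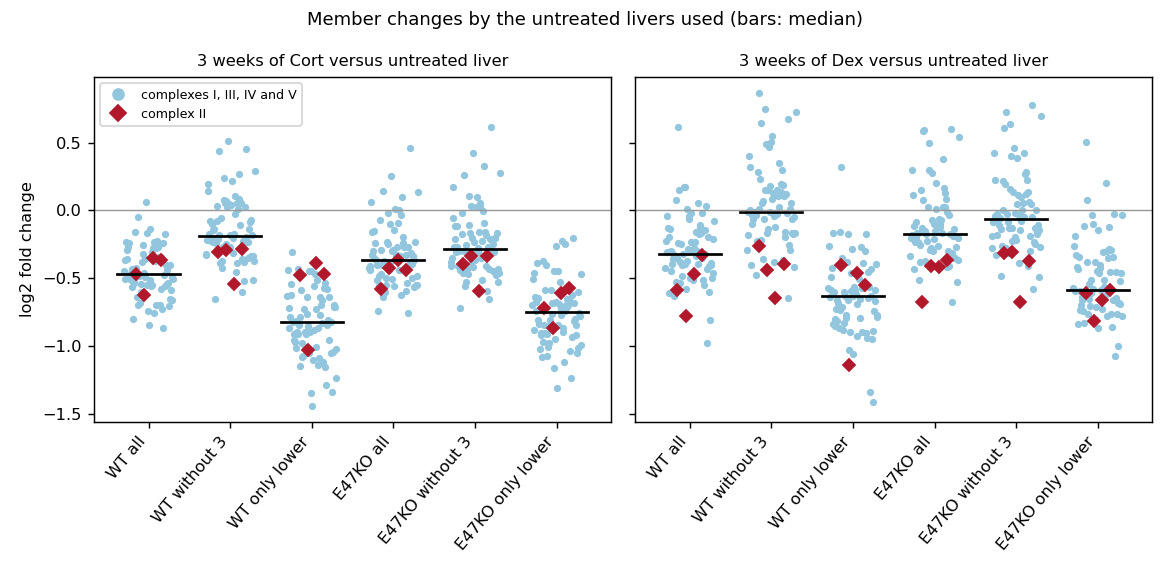
Difference of each member between treated and untreated livers (y axis, log2 fold change) for all untreated livers, without the 3 of the lower library numbers, and with only those 3 (x axis), by treatment and genotype; red diamonds are complex II, other points the other complexes, bars the median, and Cox6a2, Cox7a1, Cox8b, Cox4i2 and Cox6b2 are left out. The medians move with the untreated livers used, from -0.82 to -0.19 for Cort in WT, whereas complex II stays below 0 after 3 weeks of either hormone.

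Complex II, succinate dehydrogenase, was the complex whose decrease depended least on the untreated livers. Sdha (chr13:74322254-74350280) was at 688, 552, 764, 700 and 595 CPM in the 5 WT untreated livers and at 714, 724, 696, 782, 655 and 688 in the 6 E47KO untreated livers. After Cort it was at 468, 464, 496 and 480 CPM in WT and 451, 465, 469 and 506 in E47KO, and after 3 weeks of Dex at 449 and 426 in WT and 407, 447 and 463 in E47KO. All 13 livers after 3 weeks of hormone were thus below all 11 untreated livers. At 1 h after Dex, Sdha was at 722, 697 and 732 CPM in controls and 723, 784 and 700 in E47LKO. All but the E47LKO liver at 784, just above the highest untreated value of 782, were within the untreated range.

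The log2 fold change of Sdha was -0.47 ± 0.09 for Cort in WT (adjusted p 0.00025) and -0.58 ± 0.09 in E47KO (adjusted p 1.07e-05), and for Dex -0.58 ± 0.11 (adjusted p 0.000264) and -0.67 ± 0.09 (adjusted p 4.21e-06). Sdha was called in 19 of 20, 21 of 21, 16 of 18 and 19 of 20 settings. These settings were not separate tests. They include the reported fit, the strand column, fits without each library in turn and the choices of untreated and muscle-marker livers. Without the muscle-marker livers, which left 1 WT Cort liver, the Sdha value for Cort in WT was -0.48. Sdhc was called in 18, 20, 17 and 19 of the same settings, Sdhd in 18, 21, 8 and 18, and Sdhb in 19, 15, 16 and 6, so the calls of Sdhd for Dex in WT and of Sdhb for Dex in E47KO were the least stable. Sdhc and Sdhd, which anchor the complex in the membrane, were lower in the same livers: Sdhc was at 139 to 167 CPM in the 13 livers against 184 to 233 untreated, and Sdhd at 175 to 222 against 227 to 320. Sdhb, the iron-sulfur subunit, was at 138 to 179 CPM against 168 to 332, where the 3 livers of the lower library numbers gave 290 to 332. Sdhb was lower by 0.62 and 0.42 for Cort in WT and E47KO and by 0.78 for Dex in WT, and gave -0.41 for Dex in E47KO (adjusted p 0.0524, not called).

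Summed, complex II was at 875 to 1035 CPM (median 983) in the 13 livers after 3 weeks of Cort or Dex, at 1190 to 1557 (median 1356) in the 11 untreated livers and at 1296 to 1436 in the 6 livers at 1 h. By library totals the ranges were 827 to 1013, 1126 to 1414 and 1132 to 1258, again without overlap between the 13 and the 17 others. Of 80 members, 8 were lower in all 13 than in all 17 other livers, namely Atp5a1, Atp5l, Ndufa9, Ndufs1, Sdha, Sdhc, Sdhd and Uqcrc2. That is 10.0% of the members, against 1.95% of all 16227 genes, and no member was higher in all 13, against 1.38%. Those 16227 genes are all that were tested, including genes of low counts. The share among genes of like level and exon length is not given here, so these shares do not set the members apart. By library totals 9 members separated, of which Atp5a1, Atp5l, Ndufs1 and Uqcrc2 were the same, and 1.24% of genes did so. By library totals no single subunit of complex II separated, only the sum. The 13 citrate cycle enzymes, which include none of the members, summed to 1885 to 2303 CPM after 3 weeks of hormone, 2375 to 2872 untreated and 2396 to 2649 at 1 h.

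**Figure D4:**
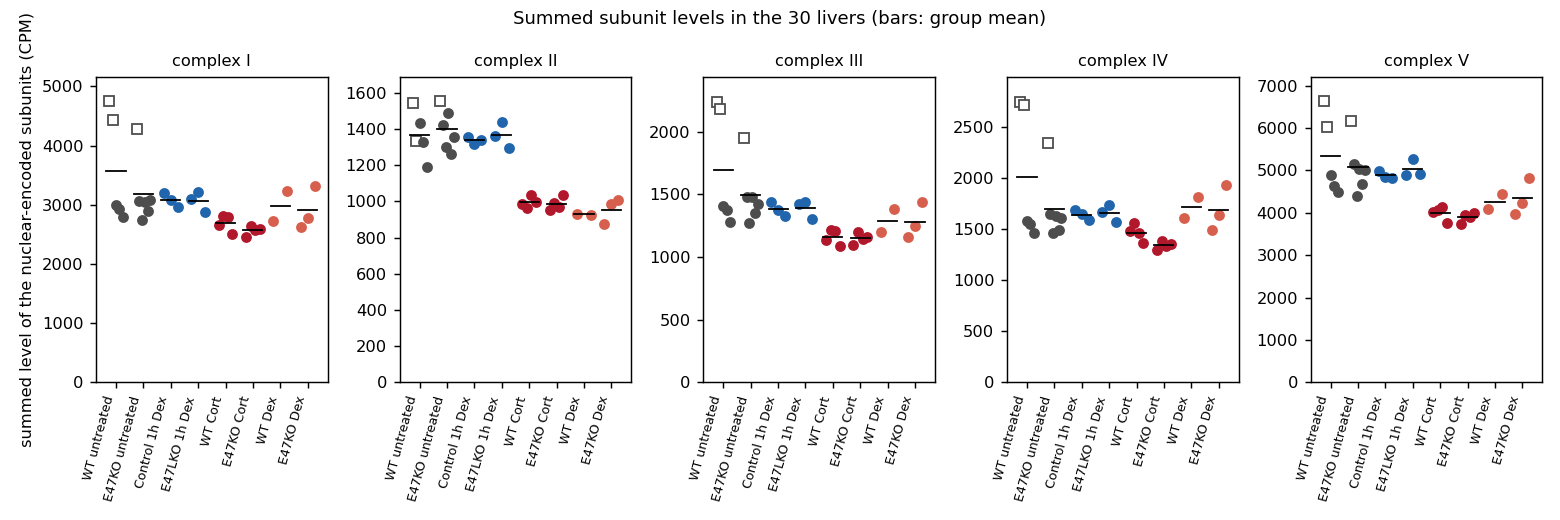
Summed level of the nuclear-encoded subunits of each complex (y axis, CPM, from 0) in the 30 livers by group (x axis); each point is a liver, open squares are the 3 untreated livers of the lower library numbers and bars are group means. For complex II the 13 livers after 3 weeks of Cort or Dex (875 to 1035) lie below all others, while for complexes I, III, IV and V the 3 open squares lie above all other livers.

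Values of other members of that set are given as a description, since they were chosen for not overlapping. Ndufs1 was at 88.2 to 106 CPM in the 8 Cort livers and 103 to 116 in the 5 Dex livers, against 130 to 154 untreated and 136 to 153 at 1 h. Uqcrc2, a core protein of complex III, was at 204 to 246 CPM after 3 weeks of hormone, against 280 to 378 untreated and 309 to 353 at 1 h. Atp5l was at 47.6 to 66.7 CPM, against 77.9 to 115 and 75.3 to 86.0. Atp5a1 (the α subunit) was at 868 to 1045 CPM, against 1067 to 1534 and 1141 to 1249. The gap was narrow for Atp5a1.

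Sums of cell type marker lists in the same livers were as follows. The 6 white adipocyte markers summed to 97.4 to 559 CPM in Dex livers, 688 to 2557 in Cort livers, 2881 to 4920 at 1 h and 2306 to 5839 in untreated livers. Only 2 of these 6 genes had a value in the comparison among untreated livers. The sum thus rests on few of them and is not a measure of adipocytes in liver. The 5 macrophage markers summed to 90.5 to 141 CPM after Dex, 41.8 to 99.9 after Cort and 95.8 to 268 untreated, and the 6 hepatocyte markers to 89353 to 147253 CPM after 3 weeks of hormone and 69926 to 125220 untreated. Their part in the member levels was not tested.

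Few members were higher after treatment. Cox6b2, known as a testis form, was at 0.0747 to 0.185 CPM in WT untreated livers and 0.116 to 0.301 in E47KO untreated livers, at 0.343 to 0.882 in WT Cort and 0.246 to 0.425 in E47KO Cort livers, and at 0.678 to 1.63 in Dex livers. It rose in 3 of the 4 comparisons, by 2.12 ± 0.45 for Cort in WT and by 2.73 ± 0.55 and 2.47 ± 0.43 for Dex, at levels far below those of Cox6b1 (log2 fold change -0.70 for Cort in WT). Cox5a was at 63.3 and 73.0 CPM in WT Dex livers and 36.0 to 58.3 in WT untreated livers (0.61 ± 0.17). Cox5a shares exons with an RNA on the opposite strand, so unstranded counts can drop or mix its reads. With coding-strand counts for the untreated livers against unstranded counts for the Dex livers the values were -1.10 and -1.23, which sets unlike counts against each other and gives no direction.

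At 1 h after Dex, edgeR called 2 members lower than in untreated WT livers and none higher (20.4% of genes called, 10.0% higher and 10.4% lower), with a median of -0.20 against -0.04 over all genes. They were Ndufb7 (-0.73 ± 0.25) and Cox8b. Cox8b had no count in the 3 control livers and was at least 4.52-fold lower than the untreated mean of 0.867 CPM. That mean was set by WT replicate 4 at 3.47 CPM, a liver with high muscle and brown adipocyte markers. At an unadjusted p under 0.05 there were 22 members (21 lower and 1 higher), or 27.5% against 33.6% of all genes. DESeq2 called 7 and scaling by library totals 20, and without the livers with muscle markers 3 were lower and none higher. Without the 3 untreated livers 4 members were higher and 2 lower, and with only the lower library numbers 64 were lower. Leaving out control replicate 1, 2 or 3 gave 0 calls each, WT untreated replicate 2 gave 1, replicate 3 gave 7, replicate 4 gave 8 and replicate 5 gave 16.

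The third question was whether loss of E47 changed the subunits. No member was called between genotypes in any of 6 comparisons by edgeR. After Dex, 78, 80 and 81 members were tested in liver, WAT and muscle. Of all genes 0.00752% were called in Dex liver (0.00752% higher, 0.0% lower), 0.0% in WAT and 0.0134% in muscle (0.0134% higher, 0.0% lower). After Cort 80 members were tested, with 0.0274% of genes called (0.00685% higher, 0.0206% lower). In untreated livers 79 were tested, with 0.0288% called (0.00719% higher, 0.0216% lower), and at 1 h 77, with 0.0%. Members at an unadjusted p under 0.05 numbered 0 in Dex liver (3.08% of all genes), 12 of 80 in Cort liver, all lower (9.84% of genes), 1 in untreated liver (3.63% of genes), 0 at 1 h (3.70%), 1 in WAT (4.29%) and 1 in muscle (3.94%). Without the livers with muscle markers, which left 1 WT and 2 E47KO Cort livers, 2 of 78 members had such a p in Cort liver and 1 of 79 in untreated liver, and none was called. DESeq2 called 1 member, Cox6a1 in Cort liver (-0.25 ± 0.07, adjusted p 0.0312), and none in the other 5 comparisons.

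Cox6a1 was at 212 to 232 CPM in the 4 WT Cort livers and 179, 187, 183 and 199 in the E47KO Cort livers, which did not overlap. Its log2 fold change by edgeR was -0.26 ± 0.07 (adjusted p 0.279). Animal numbers of the Cort livers fall into 2 ranges that are not balanced by genotype. The lower range holds 1 WT and 2 E47KO livers, and the higher range 3 WT and 2 E47KO. The next smallest p-values in Cort liver belonged to Ndufa13 (-0.31), Ndufa1 (-0.28), Atp5g1 (-0.22) and Ndufa4 (-0.22). In other comparisons the smallest belonged to Cox7a1 in Dex liver (-0.61 ± 0.42), Ndufb6 in untreated liver (-0.35 ± 0.15), Ndufa8 at 1 h (-0.18 ± 0.08), Atp5g2 in WAT (0.29 ± 0.09) and Cox6a1 in muscle (0.35 ± 0.12).

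Approximate intervals describe how large a genotype difference these data leave room for. An approximate 95% interval of the log2 fold change lay within -0.5 and 0.5 for 75 of 80 members after Cort and 74 of 77 at 1 h. It did so for 69 of 78 in Dex liver, 74 of 80 in WAT and 75 of 81 in muscle. This interval treats the SE as exactly known and is too narrow for groups this small, so these counts are upper limits. In untreated livers the same interval did so for 34 of 79, and there the 3 livers of the lower library numbers are 2 WT and 1 E47KO. The median was -0.18 with a median SE of 0.18, and 0.04 with a median SE of 0.08 without those 3, while the other medians were -0.07 for Cort liver, 0.02 at 1 h, 0.03 for muscle, -0.03 for WAT and 0.00 for Dex liver.

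The difference of the genotype effect between treatments or tissues was tested as well. No member was called for Cort against untreated liver, Dex against untreated liver, Dex muscle against Dex liver or Dex WAT against Dex liver. The number at an unadjusted p under 0.05 was 1 of 80, 0 of 80, 2 of 81 and 3 of 81. Of all genes 0.00616% were called for Cort against untreated (all higher), 0.00616% for Dex against untreated (all lower) and 0.0% for the other two. Where the hormone comparisons of WT and E47KO livers gave different counts, the difference between genotypes was thus not called for any member.

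A few members are neighbours of the disrupted gene. Tcf3 lies at chr10:80409514-80433647, and Uqcr11, the smallest subunit of complex III, lies at chr10:80402997-80406830, which is 2684 bases away on the same strand. Ndufs7, a core subunit of complex I (chr10:80249121-80256794), is 152720 bases away, and Atp5d, the δ subunit of ATP synthase (chr10:80138632-80145818), is 263696 bases away. Uqcr11 was at 78.6 and 99.3 CPM in WT Dex livers and 80.0, 96.2 and 101 in E47KO Dex livers, and at 96.6, 105, 96.7 and 87.3 in WT Cort and 86.6, 97.6, 90.6 and 95.5 in E47KO Cort livers. None of the 3 was called in any genotype comparison, and their groups overlapped in all 6.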

How the data were processed

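Gene expression was measured by RNA-seq in 39 mouse libraries. The authors mapped reads to mm10 and counted them per gene with STAR (2.4.2a) according to the methods, while the submitters' processing notes also list HTSeq, and they deposited whole-number counts for each library. Libraries of the 3-week Dex experiment were unstranded and hold 1 column of counts. The others hold an unstranded and 2 stranded columns, and the unstranded column was used throughout so that libraries were comparable; in the Cort libraries about 50.1% of stranded counts fell in the larger column, against 96.9% to 97.7% in the untreated and 1 h libraries. Entries that name no gene made up 20.8% to 36.8% of a library and were left out. The 6 deposited tables of the authors' own comparisons hold fold changes and p-values, of which none was used; they served to pair gene identifiers with symbols.

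The counts as deposited were analysed in R 4.3.3 with edgeR 4.0.16 (TMM scaling, filterByExpr, quasi-likelihood F test, Benjamini-Hochberg adjustment over all genes tested, called at an adjusted p under 0.05), with DESeq2 1.42.0 as an alternative. Tissues were compared over the 14 Dex libraries, treatments over all 30 livers, and genotypes within each experiment; libraries were taken as independent, although mouse labels can recur between tissues. CPM are scaled by TMM. RPKM use merged exon lengths, of which members had a median of 1550 bases against 4498 for 12203 protein-coding genes over 1 CPM. Of the members, 27 overlap exons of another gene, 24 of them only on the opposite strand, so unstranded counts can drop or mix such reads. Replicates are separate mice by the labels, no 2 libraries were duplicates, and p-values measure the spread between these samples. Their numbers did not pair samples across groups throughout, as the lowest correlation of deviations in a comparison was -0.28 to 0.02. The highest were 0.64 and 0.59, in the genotype comparisons of Cort and of untreated livers. Counting intervals and floors (3 counts) cover counting error only.

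Members and gene lists were chosen with earlier results of these data known. Named genes were isoforms, core subunits, members within 5 Mb of Tcf3, for each tissue or treatment comparison up to 10 called members in each direction with the largest change and the 3 with the smallest change, and for each genotype comparison the called members or the 5 with the smallest p. On simulated counts with 200 changed genes, a log2 fold change of 1 was called in 50% (Dex liver, 13300 genes) to 98% (1 h liver, 12601 genes) of changed genes in the genotype comparisons, and 0.5 in at most 0.5%. Alternatives were other scaling, no filter, DESeq2, the strand column, fewer groups in the fit, a replicate block and leaving out each library. A few named genes and results that need them are not reported here.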

Additional observations from a re-analysis of the deposited data

Results flagged for a closer look

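Member levels and complex sums were examined for single livers that stood apart in 100 groups of 4 to 6 libraries, of which 17 were flagged because the gap of the highest or lowest library to its neighbour took up most of the group's range. Chance would flag about 1 in 20 separate groups, or 5.0 of 100. The groups here were not separate, because the same livers recur and the complex sums contain the members. The 17 flags can therefore not be judged against that number.

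Most flags fell in untreated E47KO livers. Replicate 1, of the lower library numbers, was highest for complex I at 4278 CPM (others 2747 to 3075), complex III at 1951 (1267 to 1480) and complex IV at 2347 (1464 to 1646). The same liver was highest for Cox4i1 at 412 CPM (225 to 276), Cox6a1 at 245 (145 to 177), Cox6b1 at 272 (176 to 205), Cox8a at 197 (at most 135) and Ndufs7 at 74.7 (35.9 to 45.4). Replicate 2, with high muscle and brown adipocyte markers, was highest for Cox6a2 at 3.13 CPM (0 to 0.471), Cox7a1 at 4.58 (0.854 to 1.94) and Cox8b at 3.16 (0.206 to 0.552).

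Among untreated WT livers, replicate 4, also with high muscle and brown adipocyte markers, was highest for Cox6a2 at 6.25 CPM (0.037 to 1.01) and Cox8b at 3.47 (0.112 to 0.356). The highest Cox7a2l value was 128 CPM (87.6 to 98.0). In Cort livers the flagged values were Cox7a2l at 71.2 CPM (68.0 to 68.2) and Cox7b at 117 (137 to 141) in WT, and Cox7b at 126 (115 to 116) in E47KO.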

How the results depend on the processing

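Directions held under most alternatives. Of the values for single members, 1646 tissue and 2925 treatment values kept their direction and their side of the threshold, and 16 and 17 changed direction with a call in at least 1 of the settings compared.

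Counts of called members that moved by over 1.5 times were as follows. WAT against liver gave 35 in WT libraries alone (53 with both genotypes). By library totals 35 members were highest in muscle, in place of 60. Cort in WT (53) gave 29 with only its 2 groups in the fit and 8 without muscle-marker livers. Cort in E47KO (40) gave 69 with only the lower-numbered untreated livers and 21 without muscle-marker livers. Dex in WT (23) gave 3 with only its 2 groups and 68 with only the lower-numbered untreated livers, and Dex in E47KO (18) gave 28 by library totals, 32 without those 3 livers and 54 with only them. Dex at 1 h (2) gave 20 by library totals, 7 by DESeq2, 0 with only its 2 groups, 6 without the 3 livers and 64 with only them. Genotype in Cort liver gave 1 by DESeq2. With a replicate block, though the numbers did not pair the samples, the counts were 31 and 19 for Cort, 54 and 2 for Dex (WT and E47KO) and 10 at 1 h; genotype comparisons with a block gave 0. The genotype comparison in WAT had no fit with a block, since its groups share fewer than 2 replicate numbers. The cause of these shifts was not tested.

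Leaving out each library in turn gave 68 to 73 calls for muscle against liver, 46 to 55 for WAT against liver, 59 to 68 for muscle against WAT, 40 to 59 and 30 to 44 for Cort in WT and E47KO, 9 to 29 and 12 to 22 for Dex, 0 to 16 at 1 h, and 0 for each genotype comparison and difference.

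Members that changed sign and were called either in the reported comparison or under the alternative (log2 fold change under the alternative) were, by library totals in WAT against liver, Atp5g2 0.0694, Ndufa10 0.79, Cox7b 0.079, Ndufa4 0.76, Ndufv1 0.52, Sdhb 0.43, Sdhc 0.18, Uqcrc1 0.0748, Uqcrfs1 0.14 and Atp5b 0.77, and in muscle against WAT, Ndufb3 -0.79, Cox4i2 -0.0072, Cox6b1 -0.58, Cox7a2l -0.57, Ndufa4 -0.47 and Cox5b -0.50. With only the lower-numbered untreated livers they were Ndufa2 -0.44 (Cort WT), Ndufa7 -0.44 and Cox6a1 -0.40 (Cort E47KO), Ndufa2 -0.46, Cox6a1 -0.35 and Cox8a -0.38 (Dex WT), and Ndufs7 -0.0234, Ndufa7 -0.40 and Cox7c -0.51 (Dex E47KO). Without those 3 livers they were Cox6a1 0.44 and Cox8a 0.24 (Cort WT), Ndufa6 0.55 (Dex WT) and Atp5mpl 0.29 (1 h). Without muscle-marker livers Cox6a2 was at -4.25 (Cort E47KO). With the strand column, which sets coding-strand against unstranded counts, Cox5a was at -1.10 (Dex WT) and -1.23 (Dex E47KO), and Ndufb6 at -0.81 (Dex E47KO). Depth did not limit the abundant subunits, whereas Cox6a2, Cox8b, Cox4i2 and Cox6b2 rest on few counts in liver. Groups of 2 to 6 limit the genotype comparisons. The settings on untreated and muscle-marker livers and the transcript lengths were chosen after seeing the data.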

Other observations

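Of the 12 regulators of mitochondrial biogenesis, 2 were higher and 3 lower than in untreated livers after Cort in WT, 4 and 1 in E47KO, 5 and 1 after 3 weeks of Dex in WT, 7 and 1 in E47KO, and 1 and 1 at 1 h. After 3 weeks of Dex, Ppargc1a, the coactivator that drives mitochondrial biogenesis, was higher than in untreated livers by 2.59 ± 0.26 on the log2 scale in WT and by 1.88 ± 0.22 in E47KO, and its relative Pprc1 by 0.89 ± 0.21 and 1.00 ± 0.17. The nuclear receptor Esrra was higher by 0.53 in WT and 0.72 in E47KO, while Tfam, which packages mitochondrial DNA, was lower by 0.39 ± 0.09 and 0.38 ± 0.08. After Cort, Pprc1 was higher by 0.73 in WT and 0.92 in E47KO and the mitochondrial RNA polymerase Polrmt by 0.47 and 0.70, whereas Ppargc1a was not called. At 1 h, Ppargc1a was higher by 0.83 ± 0.24 and Esrra lower by 1.05 ± 0.17. These contrasts share the confounding of treatment with experiment described above.

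Mitochondrially encoded subunits split by gene in the same contrasts. At 1 h, mt-Atp6, mt-Atp8, mt-Co2, mt-Co3, mt-Nd3 and mt-Nd4l were higher than in untreated livers by 2.97 to 3.34 on the log2 scale, and the other 7 were not called. The same 6 were higher after 3 weeks of Dex in both genotypes, and mt-Atp6, mt-Co2 and mt-Co3 after Cort. These genes have near-identical copies in nuclear DNA that can share reads, so their levels are uncertain between libraries of different kits and read lengths, and the part of this was not tested.

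In the 3 untreated livers of the lower library numbers, the difference from the other 8 varied with exon length. Over all protein-coding genes over 1 CPM its median was 0.52 (log2) for 199 genes with under 1000 bases of exon, 0.34 for 1000 to 2000 bases, 0.13 for 2000 to 4000 and -0.15 above. Members in the same classes had medians of 0.64 (19 members), 0.70 (30), 0.47 (19) and 0.40 (10). Cytosolic ribosomal proteins summed to 19105 to 19921 CPM in these 3 and to 10815 to 14284 in the other 8.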
